A study of Danio rerio with 15 samples.

Results

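The response of zebrafish embryos to 50 μg/l di-butyl phthalate (DBP), a plasticiser, was described by comparing 3 exposed libraries (50A, 50B and 50D) with 2 unexposed control libraries (0D and 0E). These 5 libraries were taken from a series of 15, in which doses of 0, 5, 10, 50 and 100 μg/l had 3 libraries each. Each library was poly-A RNA from a pool of 10 whole AB strain embryos, and the exposed pools had been kept in DBP for 120 h, from the early embryo to the protruding mouth stage. DBP was dissolved in fish water with no other solvent, the controls received no DBP, and the labels name no allele or transgene. At each dose 5 beakers of 30 embryos were set up, and the best RNA samples were sequenced. A pool of whole embryos averages all tissues, so fewer cells of a type and less RNA per cell cannot be told apart. The letters name pools. No label says that a letter marks a shared clutch, and p-values measure the spread between these pools.

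Retinoic acid is made from vitamin A and acts in the nucleus through receptors that bind DNA together with retinoid X receptors. Cyp26 enzymes break it down, and *cyp26a1* is itself switched on by retinoic acid, which makes it a common readout of the signal in the embryo. Phthalates are best known as disruptors of hormone signalling, and the study followed transcripts across doses without a chosen target. It turned to retinoid genes after its own analysis of these samples had pointed to them. A reference transcript is 1 spliced form of a gene. Reads that match several forms or copies are divided between them by estimation, so the value of a single transcript is less certain than that of its gene.

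Total estimated counts ran from 20088231 in 50B to 25940890 in 0E. The third control, 0B, was left out of the comparison because it lay far from every other library (root mean square log2 distances of 0.99 to 1.09 to the 5 libraries, where 0D and 0E lay 0.36 apart and the 50 μg/l libraries 0.39 to 0.50 apart). The deposited description marks 0D as the outlier, and the values do not show 0D standing apart. Over the libraries without 0B 39890 transcripts were detected, and without 0D 41337. The paper left out 1 control as an outlier on its PCA and gives 39890 as its background, the number reached without the column 0B. Whether the labels of 0B and 0D were exchanged could not be told, and the library names are those of the deposited columns. The labels' protocol text gives 30 μg/l where titles and methods give 50 μg/l, and the latter was used. Salmon's effective lengths, the lengths it divides by after correcting for biases in each library, differed from those of 0D by a log2 SD of 0.041 in 0E but 0.11 to 0.15 at 50 μg/l. The SD was 0.036 to 0.044 at 5 μg/l, but 0.089 to 0.11 at 10 μg/l, 0.12 to 0.15 at 100 μg/l and 0.13 in 0B. Cell type markers were not checked, because the sources used here pair gene names with transcript identifiers for 15 transcripts.

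At 50 μg/l 39 transcripts were deregulated, and most of them were either present or listed at 0 in a whole group. Of 30224 transcripts tested with edgeR's quasi-likelihood test, 31 were higher and 8 lower at an adjusted p under 0.05, which is 0.129% of those tested (0.103% higher and 0.0265% lower). The smallest adjusted p was 0.0270, and at an unadjusted p under 0.05 there were 6839 transcripts, or 22.6% (9.95% higher and 12.7% lower). The 39 comprised 29 listed at 0 in both controls and present in all 3 exposed libraries, 6 listed at 0 in every exposed library, and 4 with counts on both sides. The 35 all-or-none transcripts passed the filter of 10 counts in at least 2 libraries only through the group in which they were present, and 4 of the 39 had 10 counts in all 5 libraries. The count depended on single libraries: without 0E, 50A or 50B no transcript was called, without 0D there were 43 (21 shared with the 39), and without 50D there were 1331. With 0B added to the controls no transcript was called, and 2834 had an unadjusted p under 0.05.

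**Figure D1:**
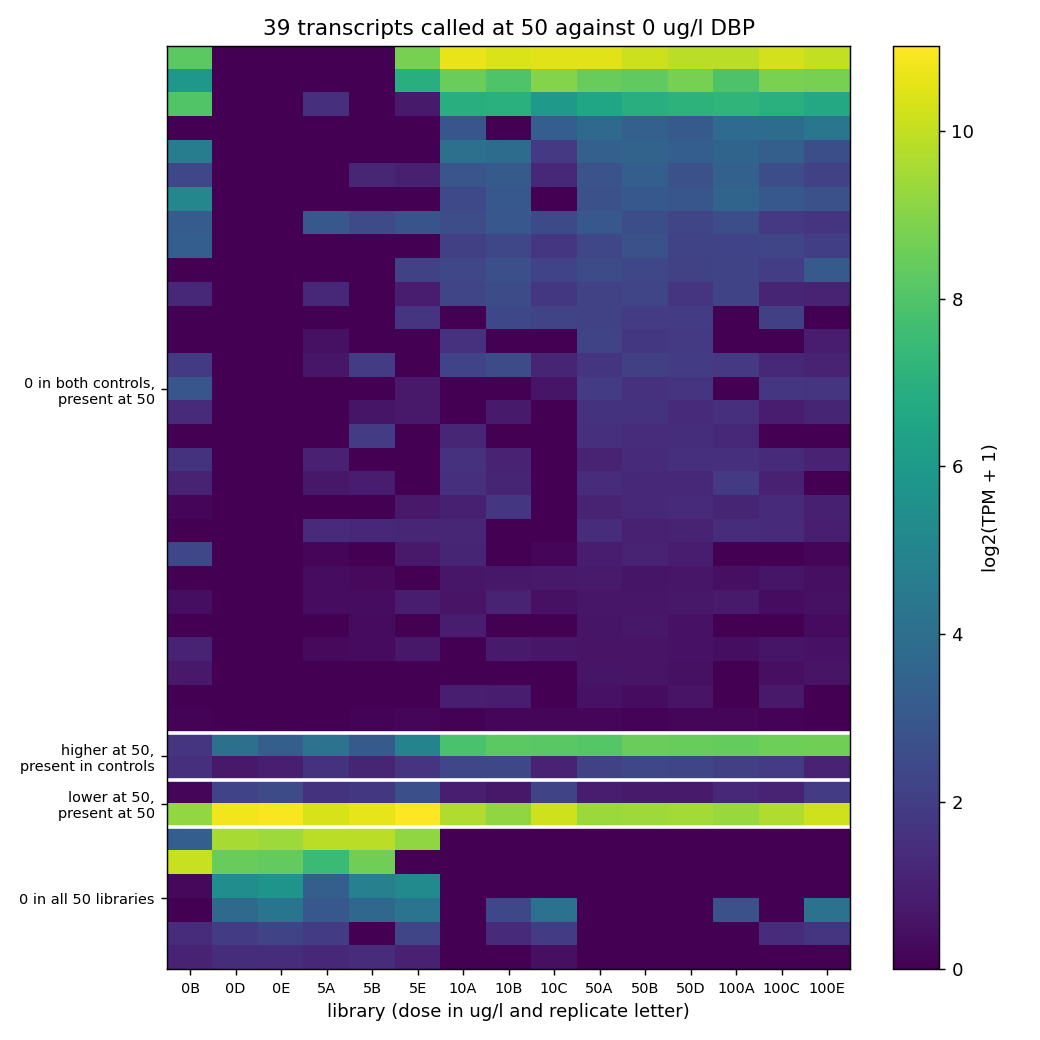
Level, as log2(TPM + 1), of the 39 called transcripts (rows, grouped by kind) in all 15 libraries (columns, named by dose in μg/l and letter). The top 29 rows are at 0 in 0D and 0E and the bottom 6 at 0 in 50A, 50B and 50D, which follows from the choice of rows; 0B and the 5, 10 and 100 μg/l libraries took no part in the choice.

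The gained transcripts were led by a few abundant ones. The most abundant, 400 bases long, was listed at 0 in 0D and 0E and at 1456, 1151 and 927 TPM (transcript abundance as a share of the library, corrected for length) in 50A, 50B and 50D. The next, 697 bases long, was at 0 in both controls and at 352, 317 and 427 TPM. A further transcript of 576 bases reached 89.7, 124 and 140 TPM. These 3 were the gained transcripts with a mean above 10 TPM at 50 μg/l, and the other 26 had means below 10 TPM. Low levels were also the rule among all 30224 transcripts tested. By their mean over the 5 libraries, 15214 of them were at 1 to 10 TPM and 9998 under 1 TPM. Against a floor of 3 counts per library in the controls, the 29 transcripts were at least 33.7-fold to at least 5701-fold higher at 50 μg/l. Together they held 1977, 1670 and 1559 TPM in 50A, 50B and 50D, and 0 in both controls. The 0 in the controls, on which the fold bounds rest, follows from how the 29 were chosen. The bounds hold for estimated counts only, in which reads shared between forms are divided by estimation.

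The control left out of the test shared the absence for 9 of the 29 gained transcripts. In 0B, the other 20 had counts, from 36 to 6625, and together they held 722 TPM. On a log scale 19 of the 29 (65.5%) lay nearer the 50 μg/l mean than the control mean in 0B. Of all 30224 transcripts tested, 62.5% did, so the share of the 29 was close to that of the whole library. The 3 abundant ones were at 302, 57.6 and 262 TPM in 0B, so that 0B lay between the other controls and the exposed libraries for the first pair and above every 50 μg/l library for the third.

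The 6 lost transcripts had a median control level of 30.7 TPM, where the gained ones had a median of 2.37 TPM at 50 μg/l. The largest, 744 bases long, was at 765 and 677 TPM in 0D and 0E and at 0 in all 3 exposed libraries. The next, of 417 bases, fell from 353 and 332 TPM to 0. A further pair were at 41.2 and 50.4 TPM and at 13.1 and 18.3 TPM in the controls, and the last pair had control means under 10 TPM. Against the floor of 3 counts per library at 50 μg/l, the 6 transcripts were at least 93.9-fold to at least 7168-fold lower. Their 0 at 50 μg/l likewise follows from the choice, and these bounds too hold for estimated counts only. In 0B, 5 of the 6 had counts: the largest was at 8.81 TPM, far below the other controls, while the 417-base transcript was at 1089 TPM, far above them.

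Presence and absence were more common than the calls alone show. Of the 30224 transcripts tested, 134 were at 0 in both controls with at least 10 counts in each 50 μg/l library. The reverse, 0 in every 50 μg/l library with at least 10 counts in both controls, held for 200. A gain needed 0 in 2 libraries and counts in 3, and a loss 0 in 3 and counts in 2. Gains and losses are therefore not like measures. With 100 counts in place of 10 there were 43 each way. Measured in the same way against the same controls, gains and losses were 35 and 65 at 5 μg/l, 76 and 107 at 10 μg/l, and 102 and 170 at 100 μg/l. All of these counts share 0D and 0E, and the differences between them were not tested.

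The 4 transcripts present on both sides were called from these 5 libraries. Wide gaps between the groups and small spreads within them are favoured by that choice. Among the 4, the largest change was a rise of ENSDART00000137707.3, a transcript of 312 bases. Its level was 15.7 and 9.01 TPM in 0D and 0E, and 275, 365 and 351 TPM in 50A, 50B and 50D. The means were 12.3 ± 4.71 TPM (SD, n = 2) in the controls and 330 ± 48.8 TPM (SD, n = 3) at 50 μg/l. The log2 fold change was 4.57 (SE 0.32, adjusted p = 0.0345 by edgeR). In libraries that took no part in the test it stayed at 7.67 to 29.4 TPM at 5 μg/l and was at 229 to 305 TPM at 10 μg/l and 335 to 397 TPM at 100 μg/l. In 0B it was at 2.25 TPM, on the side of the other controls.

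ENSDART00000154921.2, of 1555 bases, rose from 0.68 and 0.92 TPM to 3.47, 4.03 and 3.86 TPM, a log2 fold change of 2.41 (SE 0.19, adjusted p = 0.0449). Its exposed libraries did not overlap the controls, which the choice favours. 10C and 100E, both at 1.07 TPM, lay close to the controls, and 0B was at 1.91 TPM.

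ENSDART00000156843.2, a short transcript of 225 bases and the most abundant of the 4, fell from 1747 and 1923 TPM to 655, 671 and 715 TPM (log2 fold change -1.33, SE 0.09, adjusted p = 0.0321). The exposed pools were at 680 ± 31.3 TPM (SD, n = 3), against 1835 ± 124 TPM (SD, n = 2) in the controls. Such small spreads are favoured by the choice. In 0B it was at 601 TPM, below every 50 μg/l library, and in 10C and 100E it was at 1200 and 1189 TPM.

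ENSDART00000141297.3, of 810 bases, fell from 3.62 and 4.82 TPM to 0.77, 0.71 and 0.73 TPM (log2 fold change -2.38, SE 0.20, adjusted p = 0.0477). It was at 0.11 TPM in 0B, lower than in any exposed library, and at 3.73 TPM in 10C and 2.93 TPM in 100E, nearer the controls. For 3 of the 4 transcripts the level thus varied between pools of one dose, with 0B nearer the 50 μg/l mean on a log scale. For ENSDART00000154921.2, 0B lay between the groups.

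**Figure D2:**
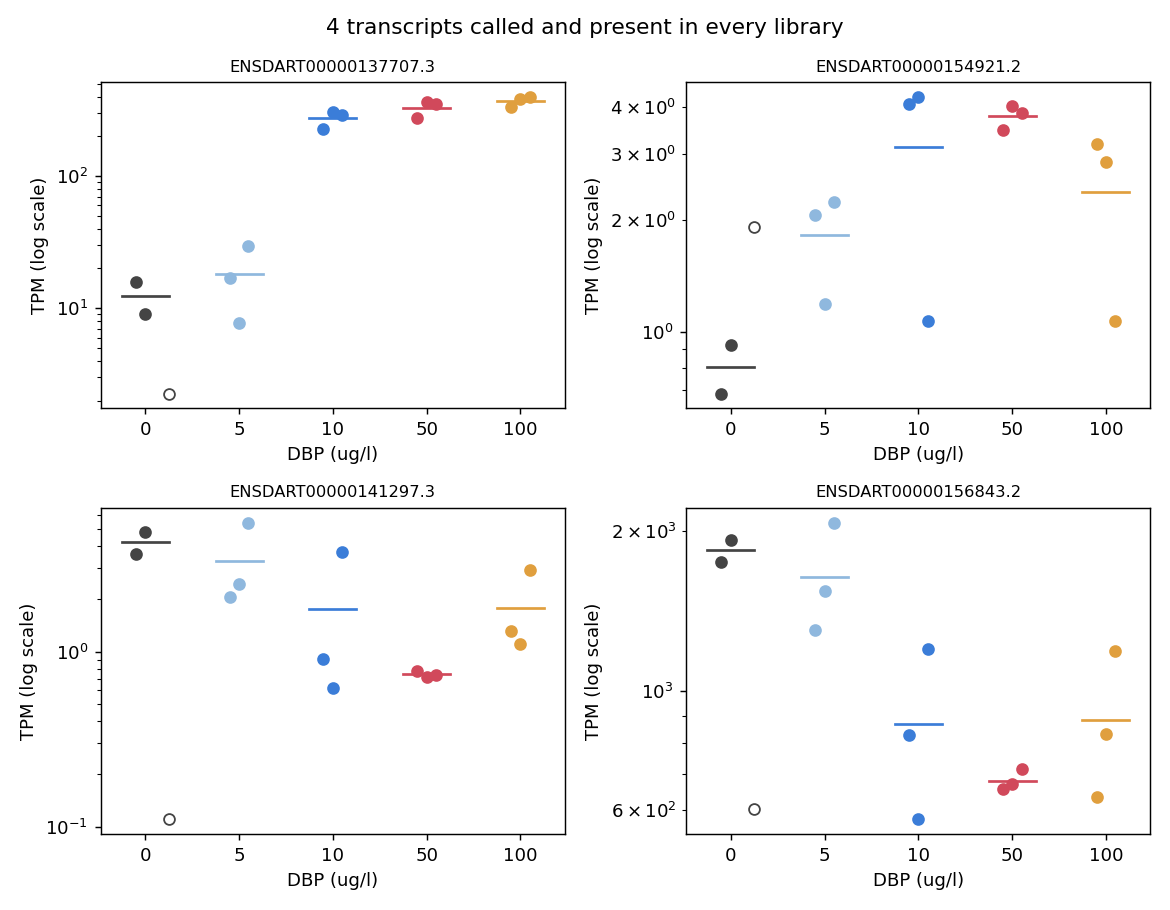
TPM on a log scale of the 4 called transcripts with counts in controls and exposed libraries, against dose. Points are libraries, bars the mean of each dose without 0B, and the open circle is 0B; only ENSDART00000137707.3 has 0B on the side of 0D and 0E.

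Libraries that took no part in the test were placed by whether each transcript lay nearer the control mean or the 50 μg/l mean on the log2(CPM + 0.5) scale. Of the 39 transcripts, 25 lay nearer the 50 μg/l mean in 0B, or 64.1%, where 62.5% of all 30224 transcripts did. At 5 μg/l the numbers were 10, 13 and 17 in 5A, 5B and 5E, at 10 μg/l they were 34, 29 and 22 in 10A, 10B and 10C, and at 100 μg/l they were 31, 34 and 28 in 100A, 100C and 100E. Most of the 39 were on the exposed side at 10 and 100 μg/l and on the control side at 5 μg/l. The libraries as a whole were placed in a like manner in part: of all transcripts tested, 72.4, 71.1 and 35.7% lay nearer the 50 μg/l mean in 10A, 10B and 10C, 60.0 and 36.1% in 100C and 100E (21366 of the 30224 in 100A), and 47.4, 46.3 and 27.2% in 5A, 5B and 5E. The shares of the 39 were 87.2, 74.4 and 56.4%, then 79.5, 87.2 and 71.8%, then 25.6, 33.3 and 43.6%. The differences from the background were not tested. Effective lengths also set 0B and the 10, 50 and 100 μg/l libraries apart from the others. Their part in the placement was not tested. Of the 29 gained transcripts, 12 had counts in all 6 libraries at 10 and 100 μg/l, 23 had counts in at least 1 library at 5 μg/l, and none was confined to 50 μg/l among the 14 libraries without 0B. Of the 6 lost transcripts, 3 were at 0 in every library from 10 to 100 μg/l.

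**Figure D3:**
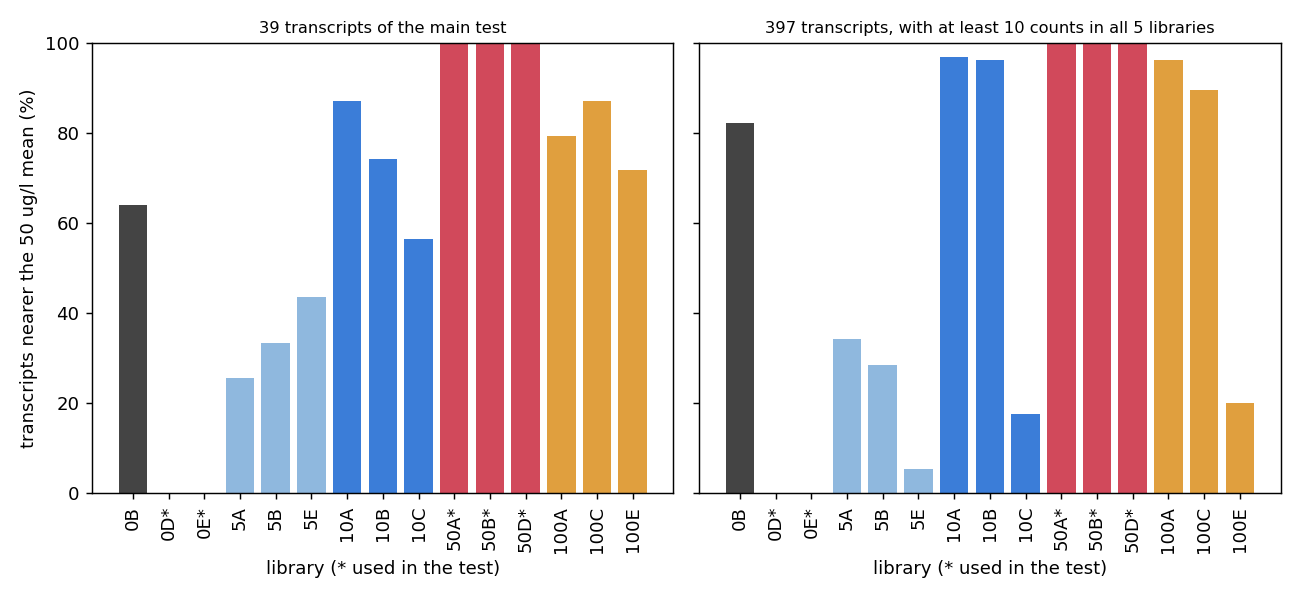
Share of transcripts nearer the 50 μg/l mean than the control mean in each library, for the 39 called transcripts (left) and the 397 called with at least 10 counts in all 5 libraries (right). Starred libraries chose the transcripts and are at 0 or 100% for that reason; 0B is on the exposed side in both panels, and 10C and 100E are on the control side on the right.

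In a fit of 14 libraries, 50 μg/l was also set against the other exposed doses. Against 5 μg/l, 36 transcripts were called (0.111% of 32573 tested), 23 higher and 13 lower at 50 μg/l, and 5 of the 39 were among them. Against 10 μg/l and against 100 μg/l edgeR called 0 transcripts (0% each), with 1236 and 2090 at an unadjusted p under 0.05. ENSDART00000137707.3 differed between 50 and 5 μg/l (adjusted p = 0.00515). The 39 were chosen with the same 50A, 50B and 50D, so for them these contrasts are not independent of that choice. A difference that missed the threshold is not a sign that 2 doses acted alike.

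When transcripts had to reach 10 counts in all 5 libraries, which leaves out every all-or-none transcript, 397 of 24948 were called (1.59%), 103 higher and 294 lower. The 4 graded transcripts were among them, and the other 393 had adjusted p-values between 0.0542 and 0.111 in the test of all 30224. The changes were moderate: the median log2 fold change was 0.98 for the higher and -1.29 for the lower transcripts, and 269 changed more than 2-fold. Medians of called sets split by sign lie away from 0 by choice. They are not a like measure to the median of all transcripts in that fit, 0.013. Of the 397, 327 lay nearer the 50 μg/l mean in 0B, against 70 in 10C, 80 in 100E and 21 in 5E. In 10A, 10B, 100A and 100C the numbers were 385, 382, 382 and 356. A like split was present over all 24948 transcripts, of which 63.5% lay nearer the 50 μg/l mean in 0B, 34.2% in 10C, 34.5% in 100E and 25.1% in 5E, against 74.4, 72.5, 72.5 and 60.3% in 10A, 10B, 100A and 100C. The split of pools within a dose was thus a pattern of whole libraries and was wider among the 397. The 397 were chosen for a gap between the 2 means used in the placement. A wider split can follow from that choice alone, and the difference was not tested.

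50D was the exposed library nearest the controls, at log2 distances of 0.45 and 0.54 from 0D and 0E, where 50A and 50B lay 0.61 to 0.73 away. For the 1331 transcripts called without it, the median log2 difference from the controls was 1.56 and 1.66 in 50A and 50B for the 266 higher transcripts, and 0.81 in 50D. For the 1065 lower transcripts it was -1.91, -1.88 and -0.80. 50D had not chosen these transcripts, but it was measured against the same 0D and 0E that had. A smaller median shift to the same side can follow from that choice alone. 50D lay nearer the mean of 50A and 50B than that of the controls for 746 of the 1331 (56.0%). No like share over all transcripts was at hand.

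By annotated length, the 39 transcripts resembled the transcripts tested, with a median of 1350 bases against 1260, and their median level was 1.81 TPM against 1.99 TPM. One of the 8 lower transcripts, ENSDART00000156843.2, was at most 300 bases long, and 1 of the 31 higher ones was 9000 bases or longer. Of the 30224 tested, 1160 and 225 were in these classes, and single transcripts do not show a difference from that. Among all transcripts tested, direction went with abundance. Above a mean of 100 TPM, 23.7% were higher and 11.9% lower at an unadjusted p under 0.05. Below 1 TPM, 3.92% were higher and 10.8% lower. For transcripts of 9000 bases or more, 18.7% were higher and 12.4% lower, with a median log2 fold change of 0.16. These shares describe the libraries, and the classes were not tested.

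None of the 4 retinoid transcripts passed edgeR's test at 50 μg/l, and *cyp26a1* passed with DESeq2 (adjusted p = 0.0092). *cyp26a1*, whose enzyme clears retinoic acid and whose transcription retinoic acid induces, was at 3.86 and 3.60 TPM in 0D and 0E and at 4.81, 4.40 and 4.36 TPM in 50A, 50B and 50D. The exposed libraries were all above the controls, and 0B, at 3.44 TPM, was below them; the log2 fold change was 0.39 (SE 0.11, adjusted p = 0.145). At 10 μg/l *cyp26a1* was at 4.83 to 5.61 TPM and at 100 μg/l at 3.25 to 3.55 TPM, and the difference of 50 from 100 μg/l had an adjusted p of 0.712.

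*cyp26b1*, which encodes a second enzyme of retinoic acid breakdown, was at 4.69 and 5.02 TPM in the controls and at 5.80, 4.47 and 4.54 TPM at 50 μg/l. The groups overlapped (log2 fold change 0.07, SE 0.13, adjusted p = 0.796). *cyp26c1*, the third enzyme, was the rarest of the Cyp26 transcripts, at 1.61 and 1.82 TPM against 1.64, 1.86 and 1.61 TPM, and overlapped too (log2 fold change 0.045, SE 0.14, adjusted p = 0.888, and just below 0 on TPM).

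*rxraa*, which encodes a retinoid X receptor, was at 2.55 and 3.11 TPM in the controls and at 2.31, 1.44 and 1.90 TPM at 50 μg/l. Every exposed library lay below both controls, but 0B, at 1.99 TPM, lay among the exposed ones (log2 fold change -0.54, SE 0.21, adjusted p = 0.214).

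The 11 further transcripts with gene names were shown by the study among those it found deregulated along the doses in these samples. Of the retinoid ones, it reported *rxraa* as downregulated and *cyp26a1* as deregulated, though with no model fitted. It took up the Cyp26 genes as known retinoic acid targets and did not find *cyp26b1* or *cyp26c1* deregulated. Directions, p-values and lack of overlap of the transcripts found deregulated are thus not independent evidence. None of the 11 passed edgeR's test on the 5 libraries. With DESeq2 *slc9a3r1a* (adjusted p = 0.00083), *dap* (0.0034), *tdh2* (0.00022) and *trim101* (1.2e-05) passed, so that 5 of the 15 were called by that tool, where it called 5564 of 30224 transcripts. Of all 15 named transcripts, 9 had a positive and 6 a negative log2 fold change, with a median of 0.070 against 0.0026 for all transcripts tested. Of the 15, 9 had an unadjusted p under 0.05, where the share of all transcripts was 22.6%, and adjusted p-values ran from 0.111 to 0.907. In 11 of the 15 the TPM of the groups did not overlap, 5 higher and 6 lower, where 45% of all transcripts did not overlap (16% higher and 29% lower). The study's choice on these samples can raise both shares among the 15.

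Among these 11, *trim101*, of the tripartite motif family, had the lowest p. It was at 13.0 and 12.1 TPM in the controls, 10.6 TPM in 0B and 16.9, 16.7 and 16.3 TPM at 50 μg/l (log2 fold change 0.51, SE 0.10, adjusted p = 0.111). The 3 exposed pools had an SD of 0.276 TPM and lay above all 3 controls. The muscle chaperone transcript *unc45b*, whose product folds myosin, was at 4.27 and 4.24 TPM in the controls and at 4.28, 5.15 and 5.16 TPM at 50 μg/l (log2 fold change 0.32, adjusted p = 0.254). 50A stood at the control level. *hspa4b*, of the Hsp70 family of chaperones, was at 24.1 and 24.4 TPM against 20.7, 23.0 and 21.0 TPM, yet its log2 fold change on scaled counts was -0.027 (adjusted p = 0.907) and was above 0 with upper-quartile scaling.

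*slc9a3r1a*, which encodes a scaffold protein beneath the cell membrane, was at 5.96 and 8.86 TPM in the controls and at 3.35, 3.53 and 3.91 TPM at 50 μg/l. Its log2 fold change of -0.84 (SE 0.18, adjusted p = 0.116) was the furthest from 0 among the 15, but 0B, at 3.68 TPM, lay among the exposed libraries. *dap*, death-associated protein, was at 74.9 and 95.3 TPM against 37.6, 35.1 and 50.5 TPM, with 54.0 TPM in 0B (log2 fold change -0.83, adjusted p = 0.126). *tdh2*, a threonine dehydrogenase, was at 7.79 and 8.91 TPM against 6.75, 5.55 and 6.00 TPM, and 0B, at 7.33 TPM, lay above the exposed libraries (log2 fold change -0.49, adjusted p = 0.113). *cdh11*, a cadherin of cell adhesion, was at 11.9 and 12.1 TPM against 10.1, 7.52 and 9.40 TPM, with 8.85 TPM in 0B (log2 fold change -0.32, adjusted p = 0.214).

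The remaining 4 had positive log2 fold changes. They were 0.46 for *zgc:112437*, a claudin gene named cldn29 in the reference table, 0.38 for the mismatch repair gene *pms1*, 0.35 for *yipf2*, of a family of Golgi membrane proteins, and 0.17 for *mid1ip1l*. Their adjusted p-values ran from 0.191 to 0.404. *zgc:112437* was at 4.20 and 5.13 TPM in the controls and at 6.06, 7.08 and 5.64 TPM at 50 μg/l. In 0B it was at 5.69 TPM, among the exposed libraries. The groups of *yipf2* and *mid1ip1l* overlapped.

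**Figure D4:**
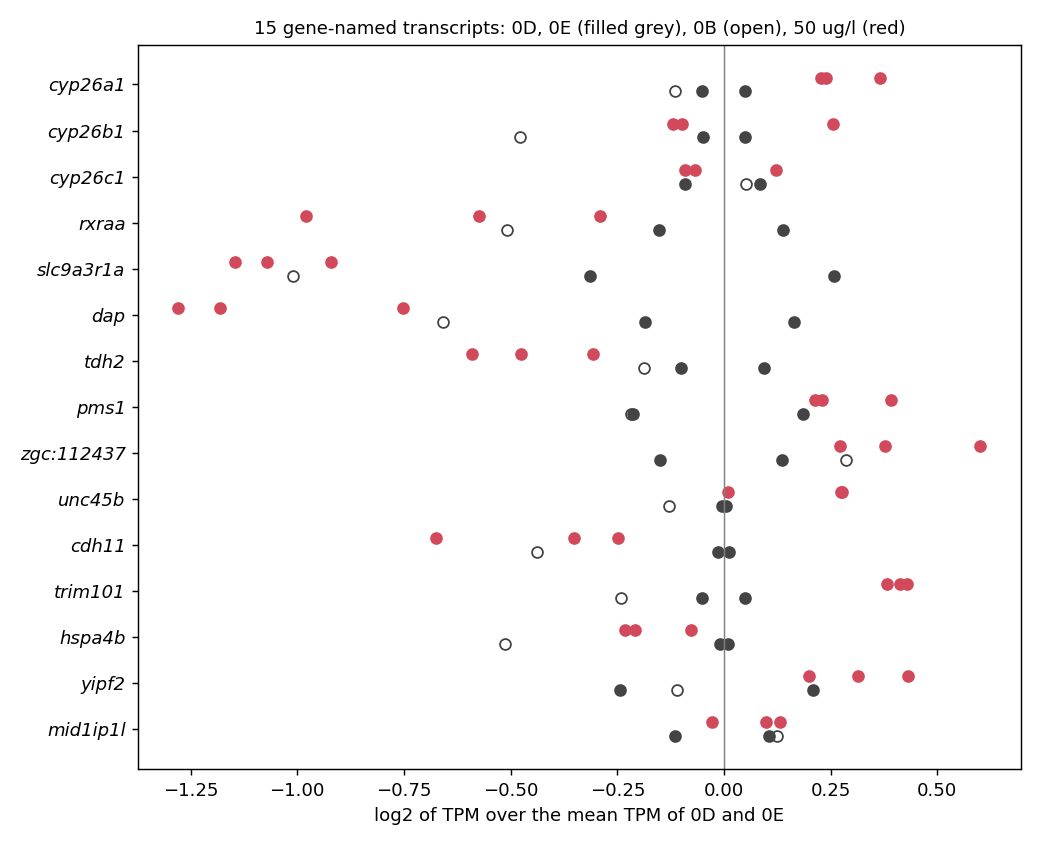
TPM of the 15 gene-named transcripts in each control and 50 μg/l library, as log2 of the ratio to the mean of 0D and 0E. Open circles are 0B. It lies among or near the 50 μg/l points for *slc9a3r1a*, *rxraa*, *cdh11*, *dap* and *zgc:112437*, among others. For *trim101*, *cyp26a1* and *unc45b*, among others, it lies on the far side of the controls.

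The number of deregulated transcripts depended on the test. With DESeq2 5564 transcripts were called in the same 5 libraries, all 39 among them, 2552 higher and 3012 lower. limma on log2(CPM + 0.5) called 244. With Salmon's effective lengths as an offset, an alternative added after the data were seen, edgeR called 60, and these held all 39. An offset cannot change a count of 0, so for the 35 all-or-none transcripts the absence and the direction were fixed. Their adjusted p-values were not. The part of effective length in the result was not tested. The direction of most calls also varied: 79.5% of the 39 were higher, against 25.9% of the 397 and 45.9% with DESeq2.

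**Figure D5:**
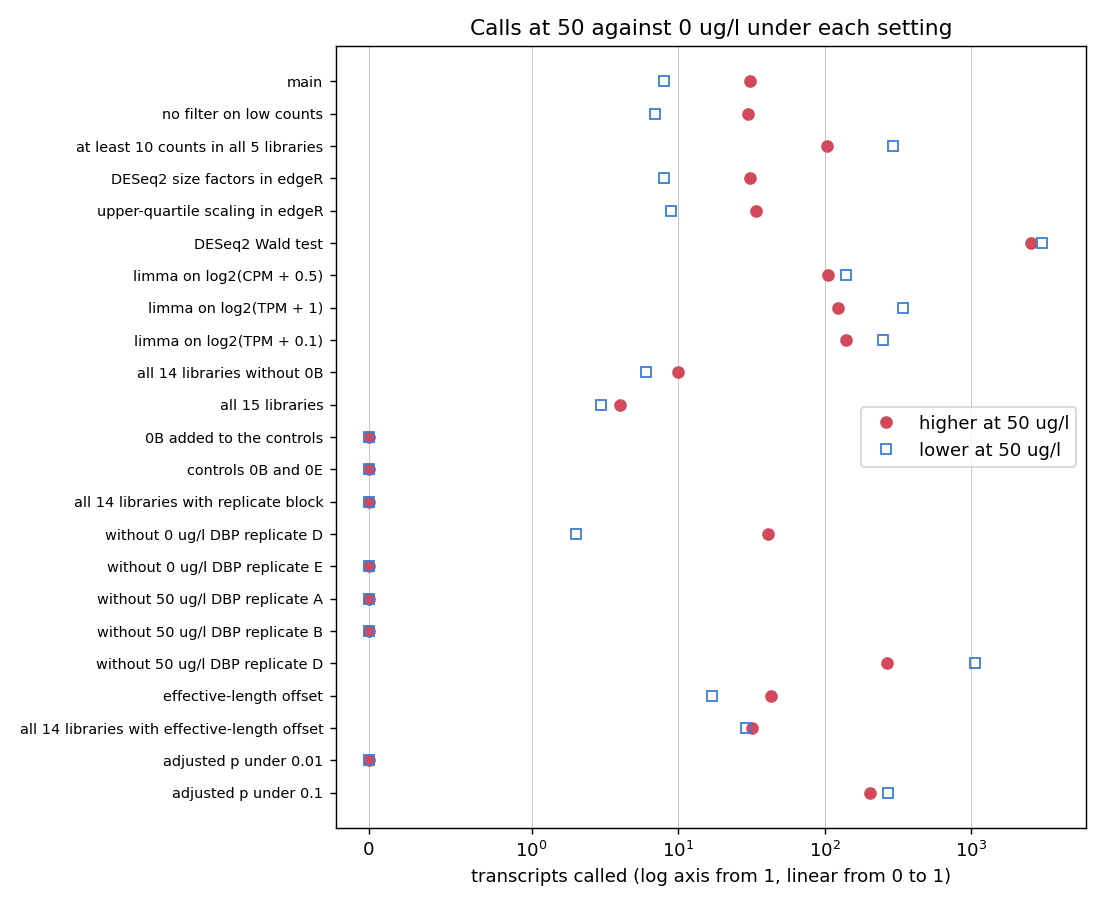
Transcripts called higher (filled circles) and lower (open squares) at 50 μg/l under each setting; the axis is logarithmic above 1 and linear from 0 to 1. Counts run from 0, for example with 0B among the controls or without 0E, 50A or 50B, to 5564 with DESeq2.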

How the data were processed

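Poly-A RNA of zebrafish embryo pools was sequenced. Per the submitters' processing notes and the methods, the authors trimmed reads with Trimmomatic and quantified them with Salmon 1.5.1 against the GRCz11 transcriptome. They deposited estimated counts and TPM per transcript, with the length and effective length of each of 46488 transcripts. Counts were not whole and were rounded.

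Transcripts with at least 10 counts in 2 or more of the 5 libraries were tested with edgeR 4.0.16 (R 4.3.3, quasi-likelihood, robust, TMM scaling) with Benjamini-Hochberg adjustment at 0.05; 16264 transcripts were not tested. The alternatives used DESeq2 1.42.0 and limma 3.58.1, other scalings, filters and controls, and leaving out each library. Scripts were tested on simulated data with a smaller spread between libraries than these data, which checks the code and not the calls. No pair of libraries of one dose agreed within counting noise, so none was counted as a duplicate. Total counts limit precision. For the fold bounds a listed 0 was taken as under a floor of 3 counts. Counts are estimates, so a listed 0 does not bound the reads that match a transcript.

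The transcripts named are the 15 that the sources used here pair with a gene name and, among the called ones with a mean of at least 1 TPM and groups that do not overlap, up to 2 each way with at least 10 counts in each library; the largest all-or-none ones are described without identifiers. The comparison, lists and tests were chosen with earlier results of these data known. No sequence is shown. All sample columns were mapped.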

Additional observations from a re-analysis of the deposited data

Results flagged for a closer look

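Data that the comparison did not use were also looked at. In the control library 0B, 20 of the 29 gained transcripts had counts and 9 were at 0. Of the 29, 65.5% lay nearer the 50 μg/l mean in 0B, where 62.5% of all 30224 transcripts tested did. Salmon's effective lengths differed from those of 0D by a log2 SD of at least 0.105 in the 50 μg/l libraries, against 0.041 in 0E. In 0B the SD was 0.128. It was 0.036 to 0.044 at 5 μg/l, 0.089 to 0.111 at 10 μg/l and 0.121 to 0.148 at 100 μg/l.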

How the results depend on the processing

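Against 39 calls, no filter (37), DESeq2 size factors (39) and upper-quartile scaling (43) gave similar counts. Requiring 10 counts in all 5 libraries gave 397, which leaves out the all-or-none transcripts by construction; DESeq2 gave 5564, limma 244 on CPM, 464 on log2(TPM + 1) and 391 on log2(TPM + 0.1). Of these calls 103, 2552, 105, 124 and 140 were higher. All 14 libraries without 0B gave 16 calls (6 shared with the 39), all 15 gave 7 (1 shared), and the effective-length offset, added after the data were seen, gave 60 with 5 libraries and 61 with 14. An adjusted p under 0.1, also added later, gave 471 and under 0.01 gave 0. With edgeR, 0B added to the controls gave 0 calls (2834 at an unadjusted p under 0.05), and 0B with 0E as controls gave 0 (1485). Leaving out 1 library at a time gave 0 to 1331 calls; a control left alone was assumed to vary like the exposed libraries. Without 0E, 50A and 50B the 0 calls stood beside 2762, 5588 and 4725 at an unadjusted p under 0.05. Apart from effects of construction, the cause was not tested.

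With the letter as a replicate block in the 14 libraries edgeR gave 0 calls (2380 at an unadjusted p under 0.05). The letters were not taken as pairs, because no label says what they share. Of 14 same-letter pairs, 11 correlated above 0.1, from -0.19 (0D with 50D) to 0.38. The median was 0.16 for same-letter pairs and -0.090 for the others, and 2 of 14 libraries correlated best with their own letter. The values of the 2 controls mirror each other (-0.19 for 0D and 0.19 for 0E with 50D), so they do not count separately. Whether a letter marks a shared effect was not tested.

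The direction of the 4 called transcripts with identifiers held in all 20 alternative fits. These fits share most or all of the libraries that chose the 4, so a turn of direction was unlikely. ENSDART00000137707.3 passed the threshold in 14 of 20, ENSDART00000154921.2 and ENSDART00000156843.2 in 10 and ENSDART00000141297.3 in 9. Of the 15 gene-named transcripts, *cyp26a1*, *slc9a3r1a*, *dap*, *tdh2* and *trim101* passed with DESeq2, and *dap* also in edgeR without 50D (adjusted p = 0.0489). The sign of 4 uncalled transcripts turned. *cyp26c1* was at -0.0066 and -0.0100 with limma on TPM with pseudocounts of 1 and 0.1, -0.044 with 15 libraries, -0.048 with 0B added, -0.10 with 0B and 0E, and -0.042 without 50B (up to 0.099 when another library was left out). *hspa4b* was at 0.017 with upper-quartile scaling, 0.092 with 15 libraries, 0.083 with 0B added, 0.17 with 0B and 0E, 0.015 without 0D and 0.046 without 50A (down to -0.090 without 50B). *mid1ip1l* was at -0.038 with 0B and 0E, and *cyp26b1* at -0.024 without 50A (up to 0.12 without 50D).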
